A study of Homo sapiens with 14 samples.

Results

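Early cultures of the leukaemia line MOLM14 that grow in gilteritinib with fibroblast growth factor 2 (FGF2) were compared with MOLM14 cells exposed to gilteritinib acutely. The comparison takes 7 of the 14 libraries of the series, namely the 4 FGF2 early libraries and the 3 acute libraries, and the libraries were picked by the names of their columns. Poly(A)+ RNA was sequenced in all of them, and the study design sets early resistant cells against acute treatment and against untreated parental cells.

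The FGF2 early cells were described as gilteritinib resistant and came from flasks 5 to 8, here called replicates 1 to 4. They were kept in RPMI-1640 with serum, antibiotic and antifungal, with FGF2 at 10 ng/mL, and were collected after 48 hours of 100 nM gilteritinib. Their treatment label names gilteritinib alone, and the FGF2 is given by the growth conditions of the line. The acute libraries were parental MOLM14 cells given the same 100 nM for the same 48 hours: 1 library without ligand, 1 with 10 ng/mL FGF2 and 1 with 10 ng/mL FL (FLT3 ligand). The acute library with FGF2 is the ligand-matched control. The other arms, used where a difference needs placing, were 4 early flasks grown with FL at 10 ng/mL under the same gilteritinib exposure and 3 untreated parental libraries.

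MOLM14 is an established acute myeloid leukaemia line that carries an internal tandem duplication of the receptor FLT3 and a KMT2A fusion. Mutant FLT3 signals without ligand through the RAS-ERK, PI3K-AKT and STAT5 routes, and gilteritinib is a kinase inhibitor that blocks FLT3 and AXL. FGF2 binds FGF receptors, which also feed the RAS-ERK and PI3K-AKT routes, and ERK activity in turn induces its own feedback inhibitors, the DUSP phosphatases and the SPRY and SPRED proteins.

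All libraries come from 1 cell line, and nothing in the labels says that the flasks were derived separately, so the p-values measure the spread between these samples, which may be technical. The 3 acute libraries differ in ligand, and their spread holds that difference. The libraries held 25723575 to 33075041 estimated counts, and 15756 of 39293 genes had enough counts to be tested. Libraries within the FGF2 early arm correlated across genes at r = 0.977 to 0.981, acute libraries at 0.966 to 0.976, and libraries of one arm with the other at 0.868 to 0.895; genes are not independent replicates. Of 10 genes that mark the line, 10 were tested, and their summed level was 1181 to 1242 CPM (counts per 1000000 of the scaled library) in the FGF2 early flasks and 1974 to 2246 CPM in the acute libraries. Erythroid genes summed to at most 0.231 CPM, with HBB, HBA1, HBA2 and ALAS2 at 0, T cell genes to at most 0.577 CPM and megakaryocyte genes to at most 1.27 CPM. Fibroblast genes summed to 1.44 to 3.23 CPM. Of the B cell genes described, PAX5 was the highest, at 70.3 to 82.6 CPM in the flasks and 39.3 to 43.5 CPM in the acute libraries, while CD79A was at 0.164 to 0.6 CPM and MS4A1, CD22 and CD79B stayed at or under 0.172 CPM. In bulk RNA, fewer cells of a kind and less RNA per cell cannot be told apart.

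The FGF2 early flasks expressed the DNA replication and mitosis programme at many times the acute level, and most tested members of the lysosomal, MHC class II, cytokine receptor and ribosomal protein lists were lower in them. By edgeR's quasi-likelihood test at an adjusted p under 0.05, 4896 genes (31.1% of those tested) were higher in the flasks than in the acute arm and 5106 (32.4%) were lower. Of these, 1900 were at least 2-fold higher and 2708 at least 2-fold lower, while the median of all genes tested was -0.04 on the log2 scale. Against the acute library with FGF2 alone, 3899 genes (24.7%) stood higher in the flasks and 3942 (25.0%) stood lower; a change of 2-fold or more was seen in 1570 and 2277 of them. This matched control is 1 library, assumed to vary like the other groups, so its calls describe that library. Nearly 1 gene in 3 was thus called in each direction against the arm, and about 1 in 4 against the matched library, and the count of each list is to be read against those shares. When a 2-fold change was itself the tested threshold, 1139 genes were higher and 1622 lower.

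The 10 largest rises among genes of sufficient level were MCM10, RRM2, CDC45, MYBL2, CDC6, TK1, CLSPN, EXO1, PKMYT1 and CBS. CDC6 (ENSG00000094804), which loads the replicative helicase at origins, stood at 78.5, 78.4, 76.2 and 78.3 CPM in the 4 flasks and at 2.20, 1.68 and 1.42 CPM in the acute libraries without ligand, with FGF2 and with FL. The flasks lay within a few CPM of each other and far above every acute library. The log2 fold change was 5.45 ± 0.14 (SE; edgeR adjusted p = 1.84e-12), and against the matched library it was 5.53. MCM10 (ENSG00000065328), another initiation factor, measured 83.9, 74.7, 70.1 and 79.0 CPM in the flasks and 1.18, 1.58 and 0.616 CPM in the acute libraries, a log2 fold change of 6.07 ± 0.21 (edgeR adjusted p = 2.57e-11). MYBL2 (ENSG00000101057), a transcription factor of cycling cells, measured 211, 221, 204 and 217 CPM against 3.87, 5.64 and 2.50 CPM, a log2 fold change of 5.73. The ranges did not overlap for either gene. CBS, an enzyme of cysteine synthesis, was the member of the 10 without a textbook role in the cell cycle, at 39.7 to 52.3 CPM against 1.61 to 2.23 CPM.

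**Figure D1:**
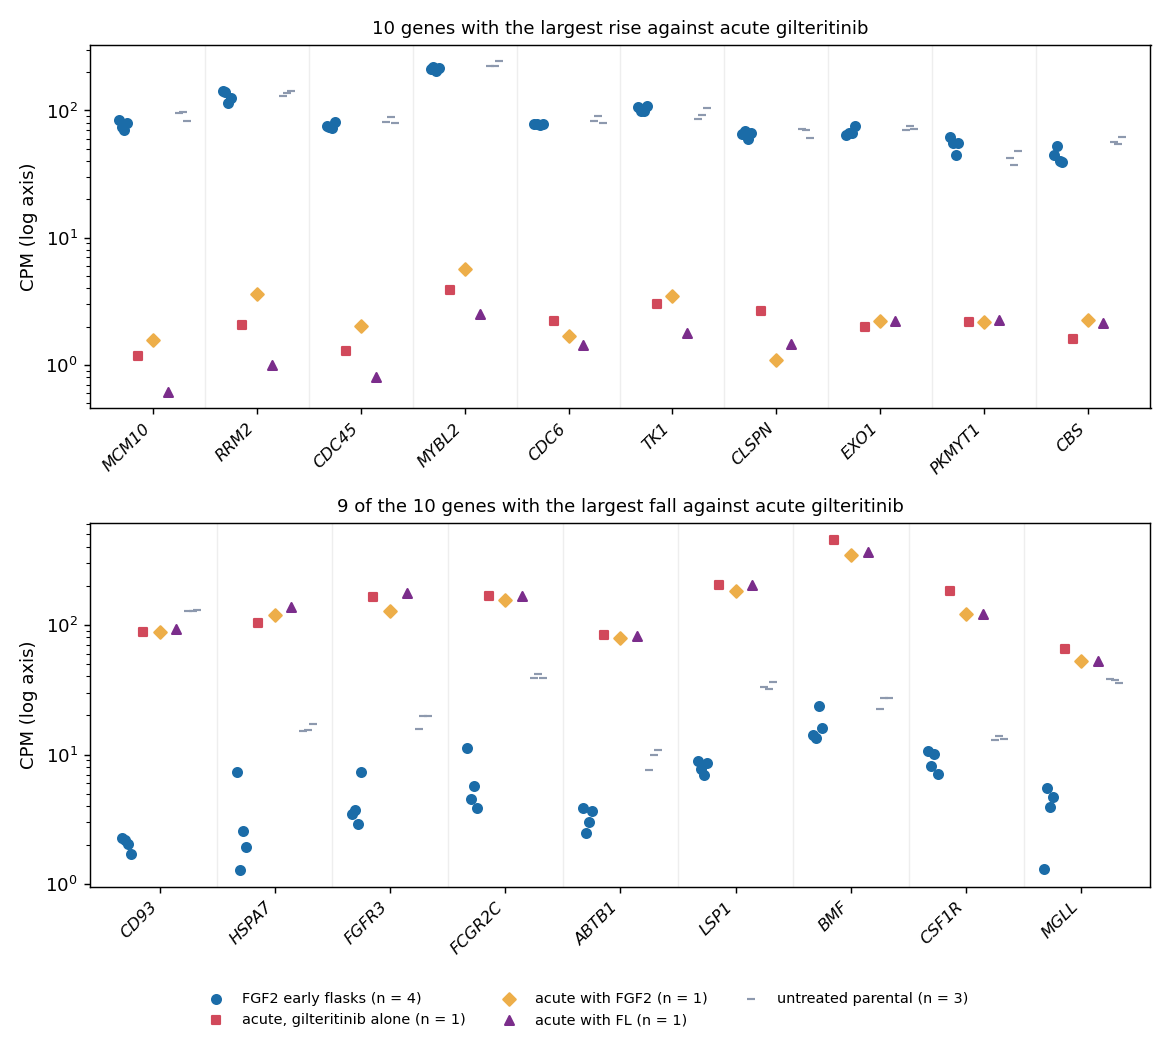
CPM on a log axis for the 10 genes with the largest rise and 9 of the 10 with the largest fall in the FGF2 early flasks against the acute libraries, 1 point per library, coloured by group. For each gene shown the 4 flasks lie on 1 side of the 3 acute libraries, as for CDC6 at 76.2 to 78.5 CPM against 1.42 to 2.20 CPM.

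The whole replication and division lists moved with these genes. All 43 tested members of the G1-S and DNA replication list were higher in the flasks, with a median log2 fold change of 2.48, and 42 of the 43 were called against the matched library. Its members with the smallest adjusted p included MCM4, a helicase subunit (4.14), and FEN1, the flap endonuclease (3.19). All 42 members of the G2-M and mitosis list were also higher, with a median of 3.09, and 41 were called against the matched library. CDK1 (ENSG00000170312), the mitotic kinase, measured 84.9, 97.2, 89.5 and 95.9 CPM in the flasks and 8.10, 6.91 and 6.43 CPM in the acute libraries, a log2 fold change of 3.68 ± 0.12. MKI67, the proliferation antigen Ki-67, measured 503, 525, 545 and 573 CPM against 85.1, 66.8 and 54.5 CPM, a log2 fold change of 2.96 ± 0.16. Both genes were low in all 3 acute libraries, whichever ligand was present. All 20 homologous recombination and repair genes were higher as well, with a median of 2.62, among them BRCA1 (2.52) and the checkpoint kinase CHEK1 (3.71).

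Promoters of these lists are shown because the members moved together and because the 2 phases of the cycle are known for different promoter elements: E2F sites in G1-S genes, and the CHR element, often with a CCAAT box, in G2-M genes. RefSeq promoters of build GRCh38.p14 (250 bases before to 50 after the gene start) were matched for 37 of 43 G1-S genes and 36 of 42 G2-M genes. An E2F letter match (TTTCCCGC, TTTCGCGC, TTTGCCGC or TTTGGCGC on either strand) was in 18 of the 37 G1-S promoters (48.6%), 3 of the 36 G2-M promoters (8.33%), 5.35% of the 10551 promoters matched to genes tested and 3.33% of all 27305 promoters in the table. A CHR match (TTTGAA, either strand) was in 2 G1-S promoters (5.41%), 25 G2-M promoters (69.4%), 9.97% of those of genes tested and 15.4% of all promoters. CCAAT on either strand was in 56.8%, 75%, 36.7% and 35.7%, in the same order. Each list thus held its own element in a larger share than the other list and than either background; a match is a description of letters and not a site of binding. The 6 stretches below are the 150 bases before the start of 3 members of each list whose last 150 bases hold the list's element. They were taken by largest log2 fold change from part of the matched promoters, so members with larger changes may hold it too. MCM4 (4.14), for example, was not part of that choice. The list's element and any CCAAT are in capitals, as read on the gene's strand or as its reverse complement. No E2F or CHR match overlaps a CCAAT match in these stretches, and 2 of the 4 CCAAT matches of HMMR, on opposite strands, share letters.
TYMS, chr18:657503-657652, plus strand: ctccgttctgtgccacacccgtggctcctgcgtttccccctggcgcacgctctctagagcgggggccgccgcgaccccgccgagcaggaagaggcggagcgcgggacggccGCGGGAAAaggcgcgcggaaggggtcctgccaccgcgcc
GINS2, chr16:85688955-85689104, minus strand: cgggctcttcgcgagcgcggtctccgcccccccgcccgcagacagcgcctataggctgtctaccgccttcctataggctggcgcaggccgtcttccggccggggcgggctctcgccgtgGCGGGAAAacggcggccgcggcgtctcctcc
CDT1, chr16:88803639-88803788, plus strand: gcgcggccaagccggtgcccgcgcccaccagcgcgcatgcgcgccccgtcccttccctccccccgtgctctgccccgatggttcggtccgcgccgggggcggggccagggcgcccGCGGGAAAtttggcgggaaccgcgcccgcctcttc
DLGAP5, chr14:55191586-55191735, minus strand: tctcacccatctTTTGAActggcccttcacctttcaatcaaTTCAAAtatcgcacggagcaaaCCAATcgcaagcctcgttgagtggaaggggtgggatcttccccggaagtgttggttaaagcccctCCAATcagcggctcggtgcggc
CDC20, chr1:43358831-43358980, plus strand: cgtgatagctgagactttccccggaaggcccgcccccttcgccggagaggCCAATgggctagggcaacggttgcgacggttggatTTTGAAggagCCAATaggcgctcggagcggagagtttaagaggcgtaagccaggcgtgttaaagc
HMMR, chr5:163460482-163460631, plus strand: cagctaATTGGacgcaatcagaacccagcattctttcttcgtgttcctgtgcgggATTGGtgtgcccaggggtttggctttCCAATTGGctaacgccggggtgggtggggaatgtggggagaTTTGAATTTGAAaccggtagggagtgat
TYMS (thymidylate synthase) measured 230 to 246 CPM in the flasks and 9.41 to 15.2 CPM in the acute libraries, GINS2 (a helicase cofactor) 32.7 to 35.0 against 1.25 to 3.09 CPM, and CDT1 (a licensing factor) 103 to 139 against 8.51 to 11.4 CPM. DLGAP5 (a spindle protein) measured 51.0 to 59.8 against 3.68 to 4.81 CPM, CDC20 (the anaphase activator) 135 to 155 against 11 to 14.9 CPM, and HMMR (a spindle-associated receptor) 33.8 to 42.1 against 2.41 to 4.0 CPM. In every case all 4 flasks lay above all 3 acute libraries, with log2 fold changes of 4.33, 3.94, 3.58, 3.76, 3.52 and 3.47 in the order printed.

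The entry point of the cycle changed in the same direction. Of 22 G1 cyclin, E2F and RB genes, 18 were higher and 2 lower, with a median of 1.76, and against the matched library 17 were higher and 1 lower. E2F1 rose by 3.88 and E2F2 by 4.53, and CCNE2, the cyclin that opens S phase, by 5.07. CCND2 (ENSG00000118971), the D-type cyclin listed as a STAT5 target, measured 95.4, 95.6, 88.7 and 88.1 CPM against 26.7, 38.1 and 34.2 CPM, a log2 fold change of 1.48 ± 0.16 (edgeR adjusted p = 1.86e-06). CCND3, another D-type cyclin, overlapped between the arms, at 200 to 208 CPM in the flasks and 161, 238 and 222 CPM in the acute libraries (log2 fold change -0.02, adjusted p = 0.908). CCND1, named here after its values were seen, measured 17.5, 14.1, 8.44 and 7.31 CPM in the flasks and 0.0328, 3.68 and 4.12 CPM in the acute libraries without ligand, with FGF2 and with FL. All flasks lay above the acute libraries for CCND1 (edgeR adjusted p = 0.014), but the difference from the matched library was not called (log2 1.69 ± 0.70, adjusted p = 0.0659), nor that from the acute library with FL (1.52, adjusted p = 0.0882).

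Cyclin-dependent kinase inhibitors fell, with 5 of 6 lower and a median of -0.69, and 3 of 6 lower against the matched library. CDKN1B (p27), which holds cells in G1, measured 38.9, 44.3, 54.7 and 49.1 CPM against 61.7, 60.9 and 67.4 CPM, so that every flask lay below every acute library. Its log2 fold change was -0.44 ± 0.10 (edgeR adjusted p = 0.00171), and against the matched library it was -0.38 (adjusted p = 0.0541). CDKN1A (p21), an inhibitor that p53 induces, measured 307, 330, 285 and 291 CPM against 529, 590 and 637 CPM and fell by 0.95 on the log2 scale. CDKN2D fell by 1.46. CDKN3, a phosphatase of CDK1 that peaks in cycling cells, was the member that rose, by 3.46.

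The FGF receptor list did not move in a common direction: of 17 tested members 4 were higher and 6 lower, with a median of 0.05, near the shares of all genes (31.1% and 32.4%). Against the matched library 4 were higher and 2 lower, with a median of -0.06, and against the acute library with FL 4 were higher and 3 lower. FGFR1 (ENSG00000077782), a receptor of FGF2, measured 199, 191, 231 and 188 CPM in the flasks and 271, 246 and 242 CPM in the acute libraries. Each flask was below each acute library, by a small margin, and the log2 fold change was -0.32 (edgeR adjusted p = 0.00689); against the matched library it was -0.28 (adjusted p = 0.103), and against the acute library with FL alone it was -0.26 (adjusted p = 0.126). FGFR3 (ENSG00000068078) measured 3.46, 3.75, 2.89 and 7.37 CPM in the flasks and 163, 128 and 177 CPM in the acute libraries, a log2 fold change of -5.15 ± 0.33 (edgeR adjusted p = 1.42e-08) and of -4.87 ± 0.40 against the matched library. FGFR3 was also lower than in untreated parental cells (15.6 to 19.9 CPM) and than in FL early flasks (14.4 to 34.6 CPM). PTPN11, the phosphatase SHP2 that relays receptor signals to RAS, rose by 0.75, the heparan sulfate proteoglycan SDC4 by 1.24 and the FGF-binding protein FGFBP3 by 1.83.

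Genes that report ERK activity were higher in the flasks than in the acute arm in most cases, and for several of them the acute library with FGF2 lay between the library without ligand and the flasks. Of 27 ERK feedback and ETS target genes, 17 were higher and 4 lower, with a median of 0.82; against the matched library 9 were higher and 4 lower, with a median of 0.57, where 24.7% and 25.0% of all genes were called. ETV4 (ENSG00000175832), an ETS factor induced by FGF-ERK signals, measured 18.4, 18, 17.5 and 14.4 CPM in the flasks and 0.131, 1.72 and 0.269 CPM without ligand, with FGF2 and with FL. Its log2 fold change was 4.58 ± 0.50 (edgeR adjusted p = 2.49e-06) and 3.31 ± 0.35 against the matched library (adjusted p = 1.44e-05). SPRY4, a feedback inhibitor of RAS-ERK, measured 11.5, 10.2, 8.13 and 9.62 CPM in the flasks and 0.426, 1.89 and 0.731 CPM in the acute libraries, a log2 fold change of 3.27 ± 0.38, and 2.38 ± 0.36 against the matched library. For both genes the acute library with FGF2 was the highest of the 3 acute libraries and still below every flask. The library with FL also stood above the one without ligand for both. Against untreated parental cells 4 of the 27 genes were higher and 5 lower, with a median of -0.33. These counts were near the shares of all genes in that comparison (13.3% and 17.1%). Parental cells held ETV4 at 24.4 to 27.0 CPM and SPRY4 at 7.24 to 9.10 CPM, and neither difference was called.

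Other feedback genes reached the level of the flasks, or nearly, in the acute library with FGF2. DUSP6 (ENSG00000139318), the ERK phosphatase, measured 107, 94.0, 100.3 and 98.8 CPM in the flasks and 31.0, 83.7 and 56.4 CPM in the acute libraries. Its log2 fold change against the arm was 0.81 (edgeR adjusted p = 0.0216), and against the matched library 0.26 (adjusted p = 0.507). The call against the arm was lost without the acute library that had no ligand (0.51, adjusted p = 0.0874) or without the one with FL (adjusted p = 0.0581). SPRY2 measured 42.8, 44.3, 48.0 and 45.4 CPM in the flasks and 23.7, 42.6 and 31.8 CPM in the acute libraries, and was not called (log2 0.47, adjusted p = 0.0573; 0.00908 without the acute library with FGF2, and 0.0485 without FGF2 early replicate 1). DUSP4 (ENSG00000120875), another ERK phosphatase, went the other way, at 0.448 to 1.37 CPM in the flasks and 6.85, 16.9 and 16.1 CPM in the acute libraries, a log2 fold change of -3.88 ± 0.41.

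The immediate early genes EGR1, FOS and FOSB were each highest without ligand among the acute libraries. EGR1 (ENSG00000120738) measured 96.3, 92.2, 106 and 109 CPM in the flasks and 47.3, 14.2 and 12.9 CPM in the acute libraries, highest without ligand. Its log2 fold change was 2.02 ± 0.37 (edgeR adjusted p = 0.000249) and 2.83 ± 0.28 against the matched library. FOS measured 215, 215, 249 and 229 CPM in the flasks and 210, 138 and 134 CPM in the acute libraries, a log2 fold change of 0.50 (adjusted p = 0.0428) that was 0.11 (adjusted p = 0.748) against the library without ligand and 0.72 (adjusted p = 0.0503) against the matched library. The call of FOS was lost without FGF2 early replicate 3 or 4 or without the acute library with FGF2 or with FL (adjusted p = 0.0703 to 0.159). FOSB measured 27.5 to 47.1 CPM in the flasks and 6.33, 3.37 and 2.89 CPM in the acute libraries, and rose by 3.10.

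MYC (ENSG00000136997), the growth regulator, measured 688, 688, 610 and 599 CPM in the flasks and 89.9, 357 and 275 CPM in the acute libraries. The flasks were above all 3, and the library without ligand was the lowest by a wide margin. The log2 fold change was 1.43 ± 0.31 against the arm (edgeR adjusted p = 0.00098), 2.85 against the library without ligand, 1.24 against that with FL and 0.86 ± 0.11 against that with FGF2. Of 10 MYC network genes 2 were higher and 4 lower, and against the matched library 1 and 2. These counts were near or under the shares of all genes (31.1% and 32.4%, and 24.7% and 25.0% against the matched library). The lower count was also 2 without FGF2 early replicate 2 or without the acute library that had no ligand. MXD4, a MYC antagonist, fell by 1.38.

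**Figure D2:**
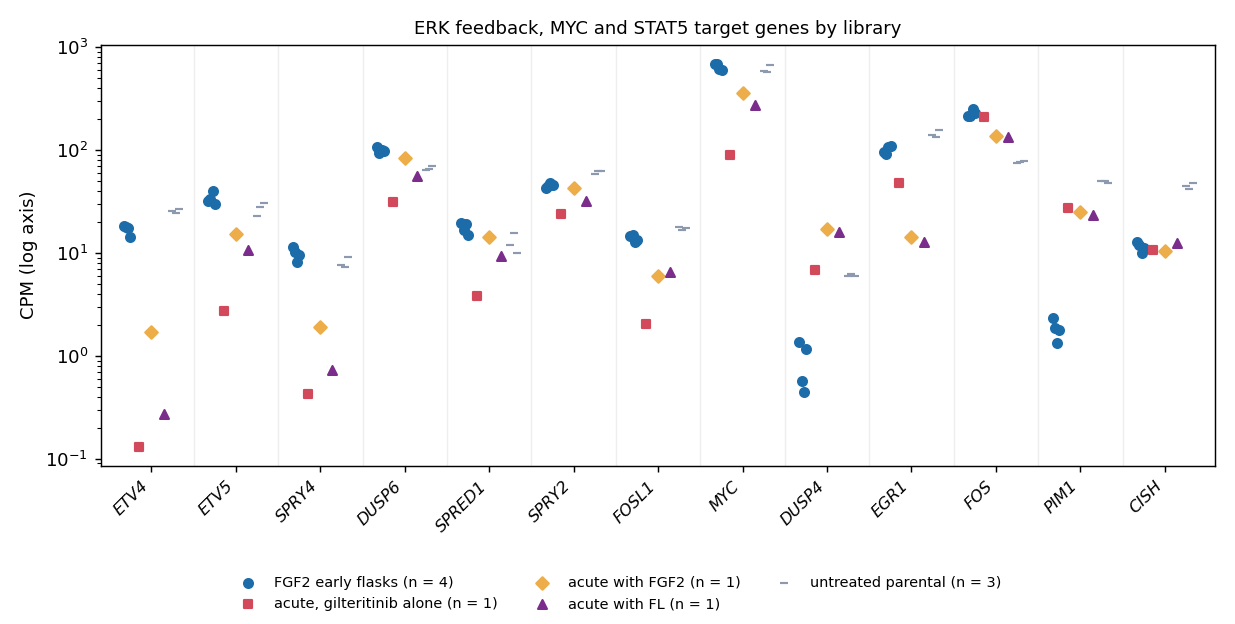
CPM on a log axis, by group, for genes of the FGF, ERK and STAT5 routes, with 1 point per library and the acute libraries shown separately by ligand. ETV4 rises from 0.131 CPM without ligand to 1.72 CPM with FGF2 and 14.4 to 18.4 CPM in the flasks, whereas PIM1 stays at 23.1 to 27.4 CPM in the acute libraries and at 1.34 to 2.36 CPM in the flasks.

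Across all genes of sufficient level, those that stood farthest above both other acute libraries in the acute library with FGF2 were DYSF, CDC25A, AMOTL1, TNF, PTP4A1, RRM2, ZNF689 and PLA2G4B, with gaps of 0.75 to 0.91 on the log2 CPM scale. These gaps rest on 1 library each and have no test. CDC25A, the phosphatase that activates CDK2, measured 3.81 CPM with FGF2, 2.10 CPM without ligand and 1.96 CPM with FL, and 44.2 to 48.7 CPM in the flasks. RRM2, the small ribonucleotide reductase subunit, measured 3.61, 2.07 and 1.0 CPM in the same order and 114 to 143 CPM in the flasks. TNF, the inflammatory cytokine, measured 5.94, 2.85 and 3.35 CPM in the same order and 22.3 to 37.7 CPM in the flasks. In the other direction BRIP1, LSM14A and ESCO2 stood farthest below, with gaps of -1.83, -1.56 and -1.51. BRIP1, a repair helicase, measured 1.31 CPM with FGF2, 5.57 CPM without ligand and 4.70 CPM with FL, and 22.9 to 26.3 CPM in the flasks. Each of these 4 genes was far higher in every flask than in the acute library with FGF2.

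STAT5 target genes were divided, with 3 of 16 higher, 4 lower and a median of 0.00, both counts under the shares of all genes. Without the acute library with FGF2, or against the library without ligand alone, 6 were called higher. PIM1 (ENSG00000137193), a survival kinase induced by STAT5, measured 2.36, 1.86, 1.34 and 1.8 CPM in the flasks and 27.4, 24.7 and 23.1 CPM in the acute libraries, a log2 fold change of -3.76 ± 0.29 (edgeR adjusted p = 6.94e-08). Untreated parental cells held 47.5 to 49.8 CPM, so the flasks were the lowest of these groups. CISH, a STAT5 feedback gene, measured 9.96 to 12.7 CPM in the flasks and 10.5 to 12.6 CPM in the acute libraries (log2 0.03 ± 0.12, adjusted p = 0.857), against 41.7 to 48.1 CPM in untreated cells (-1.97 ± 0.11, adjusted p = 2.98e-07). OSM, a cytokine gene that STAT5 induces, rose by 1.62.

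FLT3 and the cytokine receptors were lower in the flasks, with 9 of 16 lower, 1 higher and a median of -0.94, and the same counts against the matched library. FLT3 itself (ENSG00000122025) measured 407, 401, 476 and 456 CPM against 667, 738 and 742 CPM, a log2 fold change of -0.72 ± 0.09 (edgeR adjusted p = 1.25e-05). CSF1R (ENSG00000182578), the macrophage growth factor receptor, measured 10.7, 8.10, 10.1 and 7.07 CPM against 183, 122 and 121 CPM and fell by 3.98 on the log2 scale. CSF3R, CSF2RA and IL3RA, the receptors of G-CSF, GM-CSF and IL-3, fell by 1.94, 1.94 and 2.11. KIT, chosen after its values were seen, measured 1.37 to 2.07 CPM in the flasks and 23.1 to 37.2 CPM in the acute libraries. TYRO3, a kinase of the AXL family, was the member that rose, by 2.06. AXL (ENSG00000167601), which gilteritinib also inhibits, measured 29.6, 26, 28.3 and 28.8 CPM in the flasks and 17.5, 21.5 and 19.1 CPM in the acute libraries. The flasks were above the acute libraries, but the difference was not called (log2 0.54, adjusted p = 0.0784); it was called when only the 7 libraries entered the fit (adjusted p = 0.000602) and with limma-voom (adjusted p = 0.0418).

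Biosynthetic lists were higher in the flasks than in the acute libraries. Of 33 nucleolar ribosome biogenesis genes 32 were higher and 0 lower, with a median of 1.06; against the matched library 31 were higher, with a median of 0.77. UTP20 and NOP56, which process ribosomal RNA, rose by 1.96 and 1.66. Of 30 serine synthesis and ATF4 target genes 21 were higher and 2 lower, with a median of 1.10. PHGDH, the entry enzyme of serine synthesis, measured 247, 238, 219 and 233 CPM in the flasks and 18.9, 29.9 and 26.6 CPM in the acute libraries, a log2 fold change of 3.22 ± 0.14. PSAT1, the next enzyme, rose by 3.24.

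Glycolysis and lipid genes followed the same direction. Of 25 glucose uptake and glycolysis genes 16 were higher and 2 lower (PFKM and PFKFB3), with a median of 0.86. LDHA, which makes lactate, measured 861, 793, 856 and 873 CPM in the flasks and 128, 172 and 143 CPM in the acute libraries, a log2 fold change of 2.52 ± 0.16, and SLC16A1, the lactate transporter, rose by 1.93. Of 28 cholesterol and fatty acid synthesis genes 15 were higher and 2 lower, with a median of 0.48, and against the matched library 16 were higher and 0 lower. SCD, the fatty acid desaturase, measured 992, 898, 821 and 917 CPM against 149, 103 and 105 CPM and rose by 2.93 ± 0.30. Of 20 ER chaperone genes 16 were higher and 2 lower, led by the calcium-binding chaperone CALR at 2.37.

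**Figure D3:**
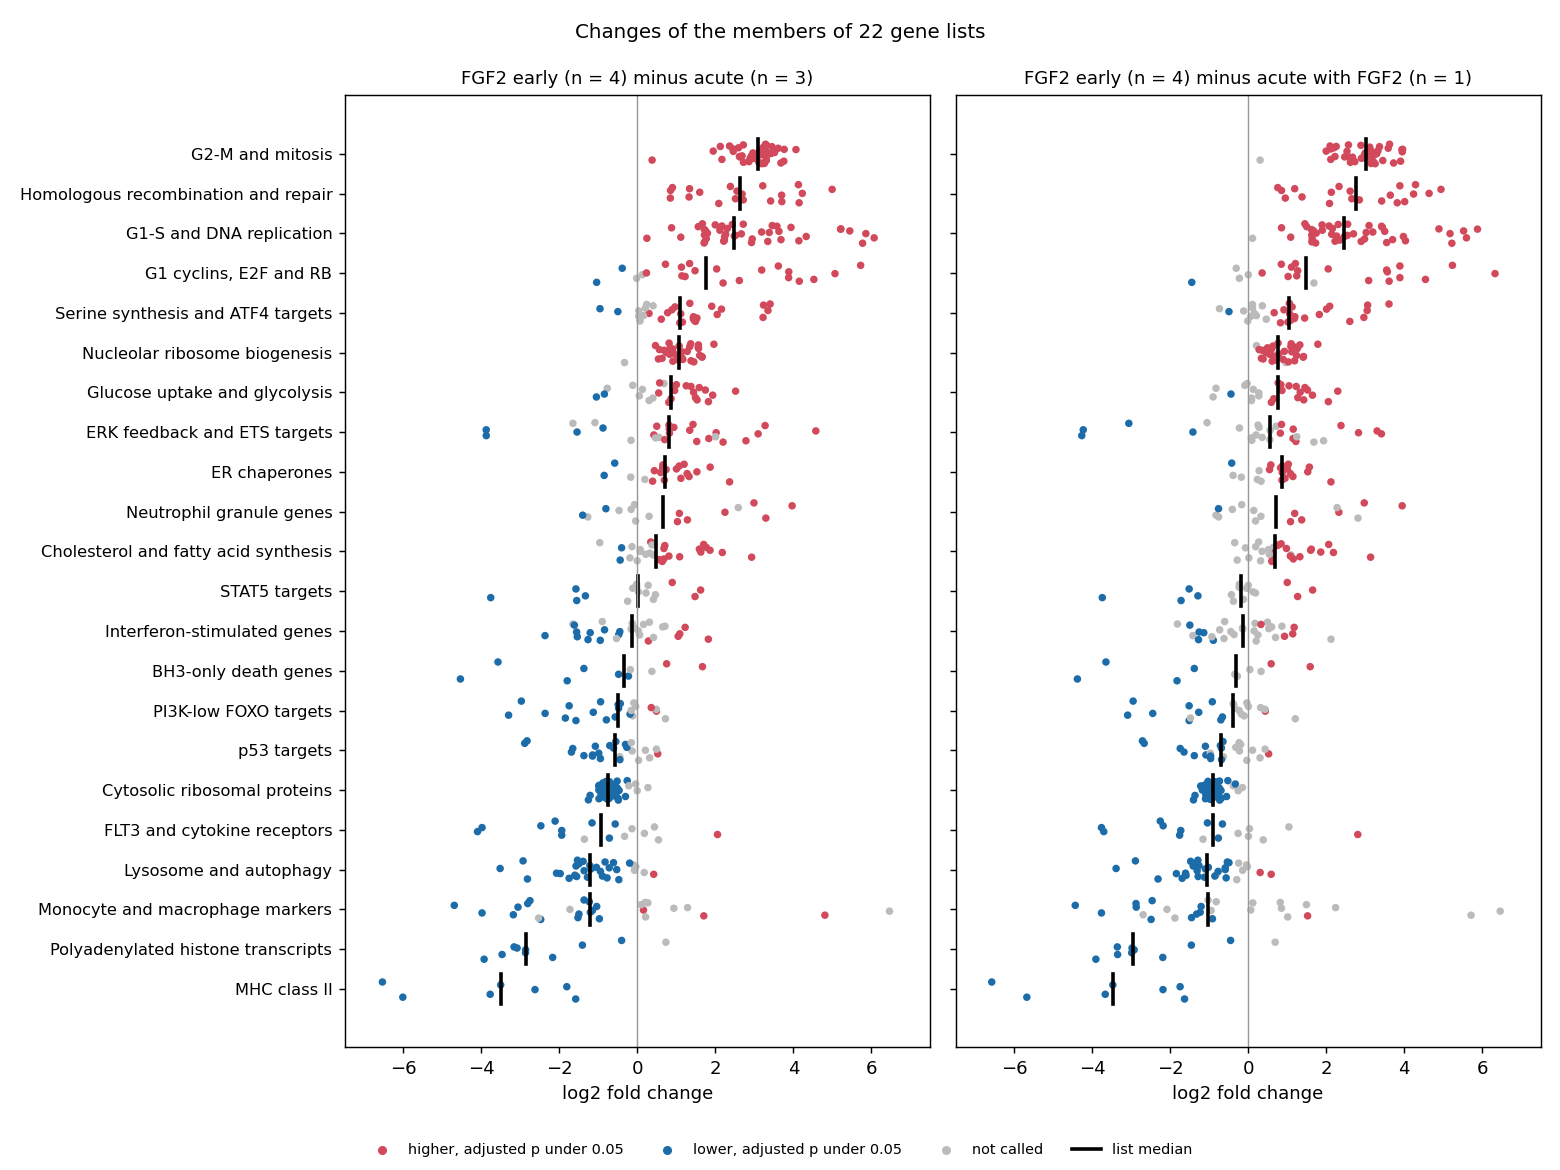
Log2 fold change of every tested member of 22 gene lists in the FGF2 early flasks, against the 3 acute libraries on the left and against the acute library with FGF2 (n = 1) on the right; the horizontal axis is log2 fold change, 1 point is 1 gene, a black bar is the list median, and red and blue points are genes called higher and lower. On the left, the replication, mitosis and repair lists have medians of 2.48, 3.09 and 2.62, and MHC class II and histone genes have medians of -3.51 and -2.87.

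Cytosolic ribosomal protein transcripts ran against the ribosome biogenesis genes: 42 of 46 were lower, 0 were higher and the median was -0.75, and against the matched library 43 were lower. RPS19, a small subunit protein, measured 623, 669, 770 and 724 CPM in the flasks and 1466, 1838 and 1689 CPM in the acute libraries, a log2 fold change of -1.26. Ribosomal protein genes made up 10.8 to 12.2% of the counts in the flasks and 16.3, 19.7 and 18.2% in the acute libraries, and this share enters the scaling of every other gene. With the scaling computed without ribosomal protein and mitochondrial genes, 5065 genes were higher and 4959 lower. Polyadenylated histone transcripts also fell, in 9 of 10 cases with a median of -2.87.

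Among the 10 largest falls were CD93, HSPA7, FGFR3, FCGR2C, ABTB1, LSP1, BMF, CSF1R and MGLL; HSPA7, FCGR2C and LSP1 have near-identical copies, so their counts are uncertain. CD93 (ENSG00000125810), a surface glycoprotein of myeloid and endothelial cells, measured 2.27, 2.19, 2.03 and 1.71 CPM in the flasks and 88.1, 88.0 and 93.0 CPM in the acute libraries, a log2 fold change of -5.45 ± 0.62 (edgeR adjusted p = 3.48e-06). ABTB1 measured 2.50 to 3.84 CPM against 78.8 to 83.8 CPM and MGLL, a lipase of monoacylglycerols, 1.31 to 5.54 CPM against 52.2 to 65.1 CPM. All flasks were below all acute libraries for each.

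Among genes of the death machinery BMF fell far, and the other BH3-only genes and their partners were mixed. BMF (ENSG00000104081), a BH3-only protein that antagonises BCL2 proteins, measured 14.2, 13.5, 23.6 and 16 CPM in the flasks and 455, 349 and 368 CPM in the acute libraries, a log2 fold change of -4.54 ± 0.31 (edgeR adjusted p = 2.91e-08) and -4.38 against the matched library. In untreated cells it was at 22.3 to 27.4 CPM. Of 10 BH3-only genes 6 were lower and 2 higher (BID and BNIP3), with a median of -0.36; against the matched library 4 were lower and 2 higher, and against the acute library with FL 4 were lower and 1 higher. HRK fell by 3.58, BAD by 1.8 and BBC3 (PUMA) by 1.37. BCL2L11 (BIM) differed little, at 58.4, 63.0, 64.6 and 70.1 CPM against 78.1, 77.4 and 69.6 CPM. Its log2 fold change was -0.23 (adjusted p = 0.0186), the ranges overlapped, and the call was lost without FGF2 early replicate 1 or 2 or without the acute library that had no ligand or that had FGF2.

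Of 11 other BCL2 family and caspase-control genes 3 were higher and 4 lower, near the shares of all genes. BCL2, the survival protein that venetoclax targets, measured 111, 104, 110 and 130 CPM in the flasks and 50.7, 65.6 and 62.2 CPM in the acute libraries, a log2 fold change of 0.94 ± 0.10. MCL1, the short-lived survival protein, measured 315, 339, 361 and 342 CPM against 206, 169 and 173 CPM, a log2 fold change of 0.89 ± 0.11. Both survival genes were higher in all 4 flasks. CFLAR, which blocks caspase-8, and BIRC2, an inhibitor of apoptosis protein, fell by 1.03 and 0.88.

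Stress and quiescence lists were lower in the flasks than in the acute libraries. Of 22 genes induced by FOXO factors when PI3K is low, 14 were lower and 2 higher, with a median of -0.49; against the matched library 9 were lower and 1 higher. TXNIP, an inhibitor of glucose uptake, measured 189, 152, 177 and 186 CPM in the flasks and 747, 959 and 1020 CPM in the acute libraries, a log2 fold change of -2.37, and PIK3IP1, an inhibitor of PI3K, fell by 3.30. Of 24 p53 target genes 16 were lower and 1 higher (FAS), with a median of -0.58; against the acute library without ligand alone 10 were lower. BTG2, an antiproliferative gene, fell by 2.89. Of 32 lysosome and autophagy genes 26 were lower and 1 higher (GLA), with a median of -1.2, among them the cargo receptor SQSTM1 at -1.57 and the protease CTSB at -1.22.

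Monocyte and antigen presentation genes were lower in the flasks. Of 27 monocyte and macrophage markers 15 were lower and 3 higher, with a median of -1.21; against the matched library 11 were lower and 1 higher. The lysosomal glycoprotein CD68 fell by 1.52 and the chemokine receptor CCR1 by 2.48. All 7 tested MHC class II genes were lower, with a median of -3.51, and all 7 were lower against the matched library. CD74, the invariant chain, measured 168, 141, 132 and 131 CPM in the flasks and 417, 443 and 426 CPM in the acute libraries, and CIITA, the class II transactivator, fell by 1.81. HLA-DMB (ENSG00000242574), which loads peptides, was at 0.0338 to 0.172 CPM in the flasks and at 8.2 to 11.5 CPM in the acute libraries. Of 20 adhesion and chemokine receptor genes 10 were lower and 6 higher, the latter near the share of all genes, and against the matched library 10 were lower and 4 higher; without the acute library with FGF2 or that with FL, 3 were higher. The selectin ligand SELPLG fell by 1.79 and CXCR4, the bone marrow homing receptor, by 1.53, while the integrin ITGA4 rose by 1.2. Of 29 interferon-stimulated genes 5 were higher and 10 lower, with a median of -0.13, shares below and near those of all genes. Against the matched library 4 were higher and 5 lower, and against the library without ligand 2 and 11.

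Granule genes of the neutrophil line were higher in part. Of 16 tested, 7 were higher and 2 lower (LYZ and SERPINB1), with a median of 0.66, where 31.1% and 32.4% of all genes were called; against the matched library 6 were higher and 1 lower. PRTN3 (ENSG00000196415), proteinase 3, measured 683, 843, 553 and 416 CPM in the flasks and 34.2, 40.3 and 45.2 CPM in the acute libraries, a log2 fold change of 3.97 ± 0.30. MPO (ENSG00000005381), myeloperoxidase, measured 43.6, 46.1, 32.3 and 34.3 CPM against 4.66, 4.95 and 5.16 CPM, a log2 fold change of 2.99 ± 0.39. Every flask was above every acute library for both. In untreated parental cells PRTN3 measured 133 to 209 CPM, below every flask, and MPO 60.6 to 79.2 CPM, above every flask. The MPO difference from parental cells was not called (log2 -0.80, edgeR adjusted p = 0.0759). Against parental cells 5 of the 16 genes were higher and 3 lower, with a median of 0.08. LYZ, lysozyme, measured 135, 103, 93.8 and 66.5 CPM in the flasks and 400, 176 and 213 CPM in the acute libraries; its fall of 1.40 was called against the arm (adjusted p = 0.00346) but not against the matched library (-0.82, adjusted p = 0.17) or against the acute library with FL (-1.10, adjusted p = 0.0655).

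Of 18 myeloid transcription factors 5 were higher and 5 lower, with a median of -0.03, near the shares of all genes. MYB and GATA2, factors of immature blood cells, rose by 1.26 and 2.69, and IRF8, a factor of the monocyte line, fell by 1.61. CEBPA, the granulocyte factor, measured 144, 105, 50.2 and 60.0 CPM in the flasks and 81.0, 104 and 281 CPM in the acute libraries, and the arms overlapped (log2 -0.79 ± 0.57, adjusted p = 0.247).

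The difference between the 2 early lines was tested directly, and here fewer genes were called: 630 (4.0%) were higher in FGF2 early than in FL early flasks and 1507 (9.56%) were lower, of which 73 and 744 differed at least 2-fold. The replication list had 3 of 43 members higher and 0 lower, the mitosis list 0 of 42 higher and 2 lower, and 20 repair genes had 1 higher. FL early replicates 1 and 4 stood apart from the other FL flasks for several genes; without both, 1299 genes were higher and 2199 lower. Leaving out 1 flask at a time gave 303 to 1214 higher, and DESeq2 gave 995.

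The 8 genes of sufficient level with the largest excess in FGF2 early over FL early flasks were FOSB, EGR1, ATP9A, DUSP1, KIF26B, DUSP2, FOS and PODXL, of which FOSB, EGR1 and FOS are immediate early genes. EGR1 measured 92.2 to 109 CPM in FGF2 early and 13.4 to 24.7 CPM in FL early flasks, a log2 fold change of 2.38 ± 0.33 (edgeR adjusted p = 0.000561). FOSB measured 27.5 to 47.1 CPM against 3.46 to 10.2 CPM, a log2 fold change of 2.39 ± 0.30 (edgeR adjusted p = 0.000252). DUSP1, a phosphatase of MAP kinases induced with them, measured 27.3 to 39.7 CPM against 8.31 to 13.3 CPM, a log2 fold change of 1.5. The feedback genes ETV4 (-0.16, adjusted p = 0.802) and ETV5 (-0.04, adjusted p = 0.957) had no called difference between the lines. Of the 27 ERK feedback and ETS targets 7 were higher and 1 lower. ATP9A, a lipid flippase, measured 39.1 to 53.5 CPM against 2.39 to 5.54 CPM in FL early replicates 1 to 3 and 28.8 CPM in FL early replicate 4; its call (adjusted p = 0.0215) was lost without FGF2 early replicate 3 or without FL early replicate 1 or 2 (adjusted p = 0.0513 to 0.0637).

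Granule genes were lower in FGF2 early than in FL early flasks in 15 of 16 cases, with a median of -1.14 and none higher. MPO measured 32.3 to 46.1 CPM in FGF2 early and 172, 513, 580 and 702 CPM in FL early flasks, a log2 fold change of -3.65 ± 0.33 (edgeR adjusted p = 2e-05). LYZ measured 66.5 to 135 CPM against 321, 811, 908 and 399 CPM, a log2 fold change of -2.61. CD93 was at 1.71 to 2.27 CPM in FGF2 early flasks and at 83.6, 173, 161 and 14.6 CPM in FL early flasks, with FL replicate 4 between the others and FGF2 early, and a log2 fold change of -5.72 (edgeR adjusted p = 6.83e-05). ANKRD52 measured 6.34 to 9.42 CPM in FGF2 early and 87.0, 82.4, 92.0 and 25.1 CPM in FL early flasks, and again FL replicate 4 was the nearest to FGF2 early.

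**Figure D4:**
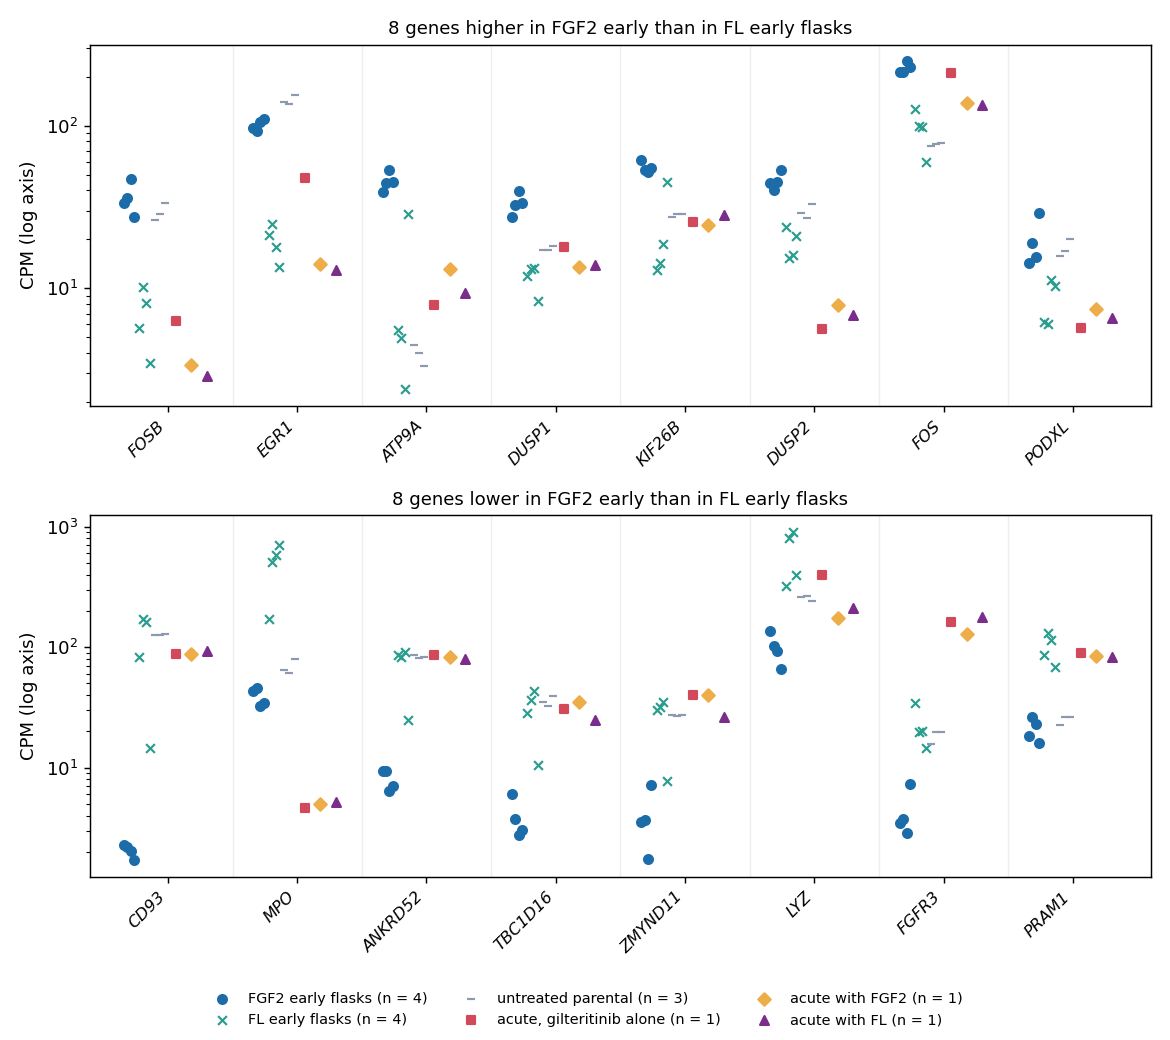
CPM on a log axis, by group, for genes with the largest called differences between the FGF2 early and FL early flasks, 1 point per library. EGR1 lies at 92.2 to 109 CPM in FGF2 early and 13.4 to 24.7 CPM in FL early flasks, and MPO at 32.3 to 46.1 CPM against 172 to 702 CPM.

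Set beside untreated parental cells, 2095 genes (13.3%) were higher in the FGF2 early flasks and 2698 (17.1%) lower, of which 408 and 972 differed at least 2-fold; the acute comparison and this one share the flasks. Without parental replicate 1 or 2, 1364 and 1320 genes were higher. CDC25A measured 44.2 to 48.7 CPM in the flasks and 56.0 to 58.7 CPM in parental cells, and RRM2 114 to 143 against 131 to 143 CPM. The mitosis list was lower in 23 of 42 cases and higher in 0, with a median of -0.34, and the replication list was lower in 15 of 43 and higher in 2, with a median of -0.14. CDK1 measured 152 to 174 CPM in parental cells, above every flask, a log2 difference of -0.83 ± 0.09 (edgeR adjusted p = 4.39e-05). The biosynthetic lists were not higher than in parental cells. Of 33 nucleolar ribosome biogenesis genes 10 were lower and 0 higher, with a median of -0.21. Of 30 serine synthesis and ATF4 targets 9 were lower and 0 higher (median -0.18). Of 25 glycolysis genes 6 were lower and 2 higher (-0.14), and of 28 lipid synthesis genes 5 and 3 (0.00). Of 20 ER chaperones 6 were lower and 2 higher (-0.15). All 7 MHC class II genes were lower than in parental cells, with a median of -2.78. Of 24 p53 targets 12 were higher and 1 lower, and of 29 interferon-stimulated genes 16 were higher and 2 lower. The lysosome and autophagy list had 7 of 32 members higher and 7 lower, with a median of -0.04. The list of genes induced by FOXO factors had 7 of 22 higher and 2 lower, with a median of 0.105. CD93, at 127 to 130 CPM in parental cells, was lower in the flasks by a log2 difference of -5.96. BMF (-0.61, adjusted p = 0.134), MYC (0.08, adjusted p = 0.859) and CCND2 (0.03, adjusted p = 0.887) had no called difference from parental cells.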

How the data were processed

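RNA was measured in 14 libraries, 7 of which enter the comparison. The deposited table gives estimated counts per gene for every library, made by the authors with kallisto on GRCh37, per the submitters' processing notes; the version, and how transcripts were summed to genes, are not given in the sources used here. The values above 0 were mostly not whole, so they were rounded. Gene symbols from a GRCh38 name table matched 33353 of 39293 gene IDs (84.9%), and unnamed genes held 4.63 to 5.53% of counts. Reads of near-identical copies (HSPA7, FCGR2C, LSP1, histones, HLA genes) may be split between them.

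Genes passed edgeR's low-count filter (minimum count 10, minimum total 15), and 15756 were tested. CPM here is the rounded count per 1000000 of the TMM-scaled library. Tests used edgeR 4.0.16 in R 4.3.3 (robust quasi-likelihood F test, Benjamini-Hochberg over all genes tested, threshold 0.05). The fit took all 14 libraries in 4 arms, or in 6 groups for the single acute libraries, because the labels name no batch and the other arms help to estimate the spread. Fold changes are FGF2 early over the control, and errors are standard errors. The code was tested on simulated data.

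Members and gene lists were chosen with earlier results of these data known, and lists are described by counts and medians without a test. Named genes were a panel of pathway genes, the 10 largest called rises and falls without overlap (mean log2 CPM of at least 3), up to 4 members of each list by adjusted p, the 8 genes in each direction with the largest gap of the acute library with FGF2, and the 8 in each direction with the largest called difference from FL early. List members printed outside this rule, such as those that went against their list, the promoter examples and receptors, were chosen after their values were seen. Some genes that the rule or the lists name are not reported here.

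Alternatives were DESeq2 1.42.0 and its size factors, limma-voom (limma 3.58.1), no filter, a 2-fold tested threshold, scaling without ribosomal protein and mitochondrial genes, only the 7 libraries, single acute controls, each library left out and the replicate number as a block. Leaving out FL early replicates 1 and 4 together was added after the data were seen. Promoter sequences came from RefSeq, GRCh38.p14.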

Additional observations from a re-analysis of the deposited data

Results flagged for a closer look

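In 9 of the 135 genes described with a test, 1 FGF2 early flask stood apart from the other 3 by Dixon's criterion. The criterion sets the gap against the range of the flasks, so the separation can be small in CPM, as for CDC6. Chance meets this criterion for 4 samples in about 1 group in 20. CEBPE, IFI6, S100A8 and S100A9 were named after their values were seen, so the count cannot be set against that rate. The separate values were 76.2 CPM for CDC6, 8.55 CPM for CDKN2D, 17.3 CPM for CIITA, 0.203 CPM for HRK, 324 CPM for IRF8, 4.83 CPM for CEBPE, 5.10 CPM for IFI6, 14.4 CPM for S100A8 and 27.7 CPM for S100A9. For CDC6, CDKN2D, CIITA, HRK and IRF8 all 4 flasks still lay on 1 side of the 3 acute libraries. For CEBPE, IFI6 and S100A8 the flasks overlapped the acute libraries, and for S100A9 they lay above them.

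In 37 of the 135 genes described, edgeR called a difference between FGF2 early and FL early flasks. Over all genes tested, 4.0% were called higher and 9.56% lower. Genes such as FOSB and CD93 were named because of this call, so part of the count follows from the choice of genes. Signal and immediate early genes were higher in FGF2 early: EGR1 by 2.38, FOSB by 2.39, FOS by 1.24, DUSP1 by 1.5 and DUSP2 by 1.27 on the log2 scale. ATP9A (2.13), KIF26B (1.28), PODXL (1.21), OAS2 (1.05), AXL (0.98), CIITA (0.77), OSM (0.64), MCL1 (0.57), CCND2 (0.53), ITGA4 (0.43) and CHEK1 (0.32) were higher as well. Granule and myeloid maturation genes were lower: MPO by a log2 difference of -3.65, CEBPE of -2.62, LYZ of -2.61, PRTN3 of -1.19, SERPINB1 of -0.78, IRF8 of -0.60 and CD68 of -0.28. Receptors and surface genes were lower too, with CD93 at -5.72, FGFR3 at -2.34, IL3RA at -1.31, CSF3R at -0.81, CSF2RA at -0.73 and SELPLG at -0.28. The others were ANKRD52 (-3.15), HRK (-2.75), MGLL (-1.89), ABTB1 (-1.74), PIM1 (-1.64), CDKN2D (-0.78), BAD (-0.59) and CCND3 (-0.44). The calls of ATP9A, BAD, CCND2, CCND3, CD68, CEBPE, CHEK1, CSF2RA, OAS2, OSM and SELPLG were lost in at least 1 fit that left out a flask.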

How the results depend on the processing

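The split of calls against the acute arm, 4896 higher and 5106 lower, was 4605 to 4981 higher and 4541 to 4900 lower when each library was left out in turn. Requiring a change of more than 2-fold in the test gave 1139 and 1622. Of 10002 calls, 79.6 to 99.6% were kept under the other settings, with 0 called in the other direction. Against the matched library, the fits gave 3703 to 4440 higher and 3364 to 4132 lower. The comparison with FL early depended more on the libraries: 630 genes higher became 995 with DESeq2, 1299 without FL early replicates 1 and 4, and 303 to 1214 when 1 flask was left out (highest without FL early replicate 4). The 1507 lower became 2199 without those 2 flasks, and 1042 to 2060 with 1 left out. Against parental cells, 2095 genes higher became 1320 to 1891 when a library was left out, lowest without parental replicate 2 (1364 without replicate 1), and 2698 lower became 1963 to 2311. The cause was not tested. E2F matches counted only before the gene start were in 32.4% of the G1-S promoters, and CHR matches in 55.6% of the G2-M promoters.

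With the replicate number as a block, a paired fit that the labels do not call for, the replicate block gave 549 higher and 1317 lower against FL early, and 1672 and 2183 against parental cells. Same-numbered libraries did not deviate together: correlations of their deviations across genes were -0.03 to 0.07 for FL early, with 2 of 4 FGF2 early flasks correlating best with their own number, and -0.11 to -0.04 for parental cells, with 0 of 3. FGF2 early and acute libraries share only number 1, so no block was fitted there.

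The number of libraries limits precision: the matched control is 1 library, and every acute condition has 1. Genes under about 1 CPM rest on few counts.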

Other observations

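FGF2 early replicate 2 stood above the other 3 flasks for a few myeloid and interferon genes, named here after their values were seen. S100A9, a calcium-binding protein of neutrophils and monocytes, measured 27.7 CPM in that flask and 2.69 to 3.84 CPM in the others, and S100A8, its partner, 14.4 CPM against 2.25 to 2.65 CPM. CEBPE, a factor of late granulocyte maturation, measured 4.83 CPM against 0.749 to 1.38 CPM. The interferon-induced genes IFI6 and OAS2 measured 5.10 CPM against 0.959 to 1.34 CPM and 16.2 CPM against 5.34 to 8.99 CPM. The FL early flasks also varied for S100A9, from 2.01 to 56.2 CPM.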
